A study of Mus musculus with 9 samples.

Results

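Lung messenger RNA of mice with 2 copies of a human CFTR transgene was compared with that of wild type mice, using 6 of the 9 arrays of a series on overexpressed normal human CFTR. The 3 arrays titled HO came from FVB/N mice of genotype SP-C-hCFTR+|+/mCftr+|+, and the 3 titled WT from FVB/N mice written as mCftr+|+. The remaining 3 arrays, titled HE (SP-C-hCFTR+|-/mCftr+|+, 1 transgene copy), entered the model for its estimate of spread and are quoted only beside a result. Members were chosen from the sample titles, over all probe sets that are not array controls. Both endogenous mouse Cftr alleles were intact in all groups. The transgene is a human cDNA under the promoter of Sftpc, so that expression was aimed at respiratory epithelial cells, and whole lung of adult mice was the tissue, with no finer age in the labels. HO replicate 2 carries conflicting labels: its title and genotype field give 2 copies and its description gives 1. It was kept as HO, and values without it are given beside many of the differences that it moved. The third WT array has no genotype field and was assigned by its title. No label says that each array came from a separate mouse, so the tests measure the spread between these samples, part of which may be technical.

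CFTR is a cAMP-regulated chloride and bicarbonate channel at the apical surface of epithelia, and its loss causes cystic fibrosis. The channel is a multi-domain membrane protein that folds slowly in the endoplasmic reticulum with the help of cytosolic heat shock proteins, and misfolded copies are removed by the ubiquitin-proteasome system. Surfactant protein C is made by alveolar type II cells, which secrete surfactant from lamellar bodies and regenerate the flat alveolar type I cells. The comparison asked how lung gene expression differs when the normal channel is made in excess in these cells.

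The tissue carried the signature of lung. Sftpc ranked among the 4 highest of the non-control probe sets on every array, and all 20 alveolar type II markers with a probe set passed the filter on low signal. Sftpc, the source of the transgene's promoter, read 68135, 68142 and 50229 on the WT arrays and 67718, 66705 and 55291 on the HO arrays, in intensity units and in the order of replicates 1, 2 and 3, which is kept throughout. The 2 groups overlapped, and HO minus WT was 0.03 ± 0.15 on the log2 scale (SE from limma, n = 3 per group, as for all differences that follow). Mouse Cftr read 958, 1201 and 904 on the WT arrays and 959.7, 1119 and 1028 on the HO arrays, a difference of 0.03 ± 0.14, again with full overlap. The Cftr probe set was designed for the mouse transcript, whether it also binds the human one was not tested, and it therefore does not check the genotype labels. Array medians ran from 697.1 to 741.8. The signal ratio of the 3' to the 5' control probe set of Actb, a measure of RNA integrity, was 1.301, 1.290 and 1.178 in WT and 1.354, 1.388 and 1.221 in HO, and for Gapdh it was 0.845, 0.799 and 0.775 in WT and 0.885, 0.885 and 0.793 in HO. Both ratios were higher in HO than in WT within each replicate number, and their part in the differences below was not tested.

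No gene passed the test. Of 13576 probe sets above the signal filter, 0 reached an adjusted p of 0.05 in limma with Benjamini-Hochberg adjustment (0% of those tested), and the lowest adjusted p was 0.602. An unadjusted p under 0.05 was reached by 610 (4.49%), split into 229 (1.69%) with higher and 381 (2.81%) with lower signal in HO. That split moved with the scaling and with the filter. It was 288 higher to 289 lower after quantile normalization and 427 to 211 after median centring, which moved the median difference of all probe sets from -0.005 to 0.049, and 391 to 834 with no signal filter and 191 to 187 with a filter at the 60th percentile. The number at an unadjusted p under 0.05 dropped to 397 without HO replicate 2 and grew to 1001 without HO replicate 3. The 3 HO arrays lay entirely above or below the 3 WT arrays for 1205 probe sets (8.88%), 540 higher (3.98%) and 665 lower (4.90%). Precision was such that the 95% interval of the difference lay within 2-fold in either direction for 13128 probe sets (96.7%) and within 1.5-fold for 9664 (71.2%), with a median SE of 0.16. Every gene below is therefore described by its values, none of which passed the test.

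**Figure D1:**
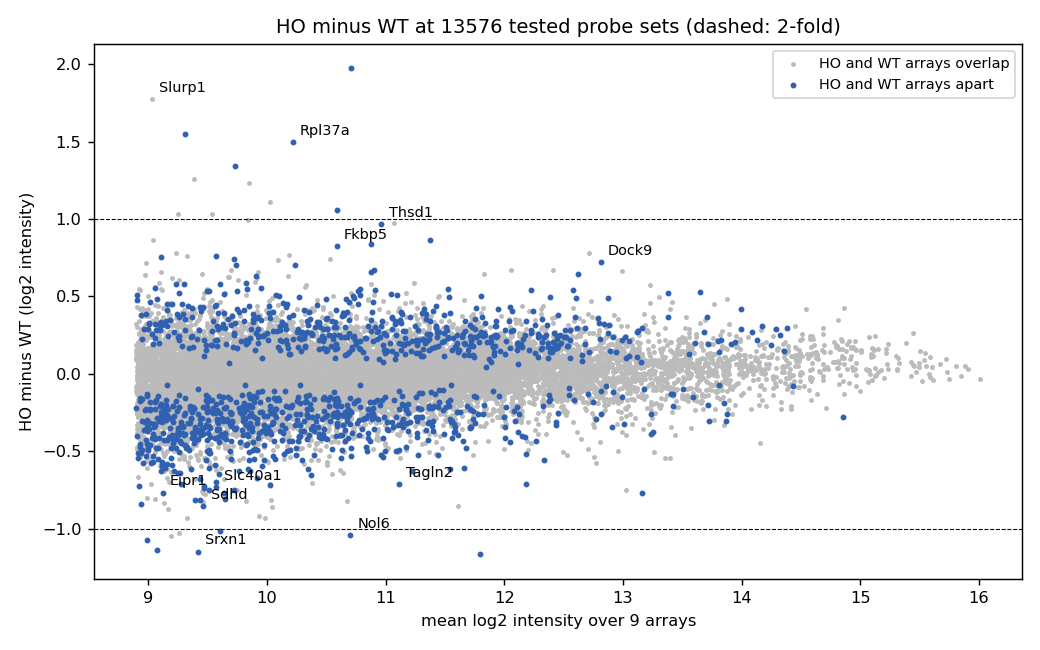
Difference of HO from WT (log2 intensity, vertical axis) against the mean log2 intensity over 9 arrays (horizontal axis) for the 13576 tested probe sets. Blue points are the 1205 probe sets whose HO and WT arrays do not overlap, grey points the rest, and dashed lines mark 2-fold. Most points lie within 0.5 of 0, and 11 probe sets lie above the upper line and 8 below the lower.

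The 10 genes of lowest p that were higher in HO had differences of 0.51 to 1.497. Thsd1, a thrombospondin-domain membrane protein found in endothelial cells, had the lowest p of all probe sets. Thsd1 read 1311, 1163 and 1372 on the WT arrays and 2326, 2562 and 2631 on the HO arrays, 1.96 times the WT mean, a log2 difference of 0.97 ± 0.16 (adjusted p = 0.602 in limma). Its HO arrays all lay above its WT arrays, by 0.83, 1.14 and 0.94 within replicate numbers 1, 2 and 3. A second probe set of Thsd1 read 1183, 1016 and 944 on the WT arrays and 1878, 2384 and 2274 on the HO arrays, a difference of 1.055 ± 0.20, and here too the groups stood apart. Without HO replicate 2 the differences at both probe sets were 0.95 and 0.99, and in HE, measured against the same WT arrays, they were 0.96 and 0.64.

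Fkbp5, which modulates the glucocorticoid receptor and is itself induced by glucocorticoids, read 1009, 1114 and 1390.4 on the WT arrays and 2027, 2037 and 2106 on the HO arrays. The HO arrays were close to each other and all above WT, with a difference of 0.83 ± 0.16 and an HE difference of 0.395. Its second probe set gave 0.16 ± 0.25, and there only HO replicate 3 stood above the WT arrays. Promoter windows are shown for Thsd1, the gene of lowest p, and for Fkbp5, the one member of the glucocorticoid-responsive list among the 20 leading genes, from 250 bases before to 50 bases after the RefSeq start in build GRCm38.p6, read along the gene's strand.
Thsd1 (chr8:22227053-22227352, plus strand): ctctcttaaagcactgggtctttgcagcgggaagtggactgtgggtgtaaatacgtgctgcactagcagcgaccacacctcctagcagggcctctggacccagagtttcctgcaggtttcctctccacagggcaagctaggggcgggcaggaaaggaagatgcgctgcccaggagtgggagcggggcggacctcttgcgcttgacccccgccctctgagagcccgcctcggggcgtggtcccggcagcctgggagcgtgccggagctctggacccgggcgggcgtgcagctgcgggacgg
Fkbp5 (chr17:28486100-28486399, minus strand): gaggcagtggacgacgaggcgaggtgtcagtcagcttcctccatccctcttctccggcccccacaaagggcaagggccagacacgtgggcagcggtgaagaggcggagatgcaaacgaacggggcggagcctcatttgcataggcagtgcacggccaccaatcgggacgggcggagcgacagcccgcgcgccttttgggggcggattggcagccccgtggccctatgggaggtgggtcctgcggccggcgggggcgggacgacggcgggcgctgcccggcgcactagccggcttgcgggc
Neither window held a full palindromic glucocorticoid element (AGAACA and TGTTCT with 3 bases between them, which reads the same on both strands), found in 3 of 32851 RefSeq promoter windows of that length (0.00913%). An element this rare is absent from nearly every window, and regulation of these genes by glucocorticoids was not tested.

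Dock9, which activates the small GTPase Cdc42, read 5427, 5699 and 5357 on the WT arrays and 8234, 10417 and 8645 on the HO arrays, with all HO arrays above WT and a difference of 0.72 ± 0.18. Its other probe sets gave 0.08 and -0.13. Chm, the Rab escort protein that presents Rab GTPases for prenylation, read 559.6, 503 and 457 on the WT arrays and 833, 701 and 655 on the HO arrays, a difference of 0.52 ± 0.14 with the groups apart. Tmed9, a cargo receptor of transport between the endoplasmic reticulum and the Golgi, differed by 0.51 ± 0.13 at its leading probe set and by -0.36 ± 0.19 at the other, so the 2 probe sets pointed opposite ways. Polr1b, a core subunit of RNA polymerase I, read 604, 457 and 558 on the WT arrays and 867, 797 and 743 on the HO arrays, a difference of 0.58 ± 0.145. The HE arrays of Polr1b lay within the WT range, with a difference of -0.09.

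Ltb, the lymphotoxin beta chain that lymphocytes display to organise lymphoid tissue, read 595, 847 and 568 on the WT arrays and 1083, 1301 and 946 on the HO arrays. Its groups did not overlap and its difference was 0.74 ± 0.19, while the lymphocyte lists had medians of -0.007 over 16 T and NK cell genes and -0.02 over 13 B cell genes. Summed over their members, the T and NK cell markers ran from 15558 to 17698 in WT and from 15208 to 20933 in HO, and the B cell markers from 15980 to 17690 in WT and from 16751 to 18095 in HO. In whole lung, more cells of a type and more RNA per cell cannot be told apart. Mmaa, of mitochondrial vitamin B12 metabolism, differed by 0.53 ± 0.14, and Prrg2, a transmembrane protein with a vitamin K-dependent Gla domain, by 0.76 ± 0.19. Rpl37a, a component of the large ribosomal subunit, read 364, 779.9 and 931 on the WT arrays and 1682, 2063 and 1709 on the HO arrays, the largest of the 10 differences at 1.497 ± 0.28. Its other probe sets gave 0.215 and 0.16, and the WT values of the leading one were themselves spread over more than a factor of 2.

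**Figure D2:**
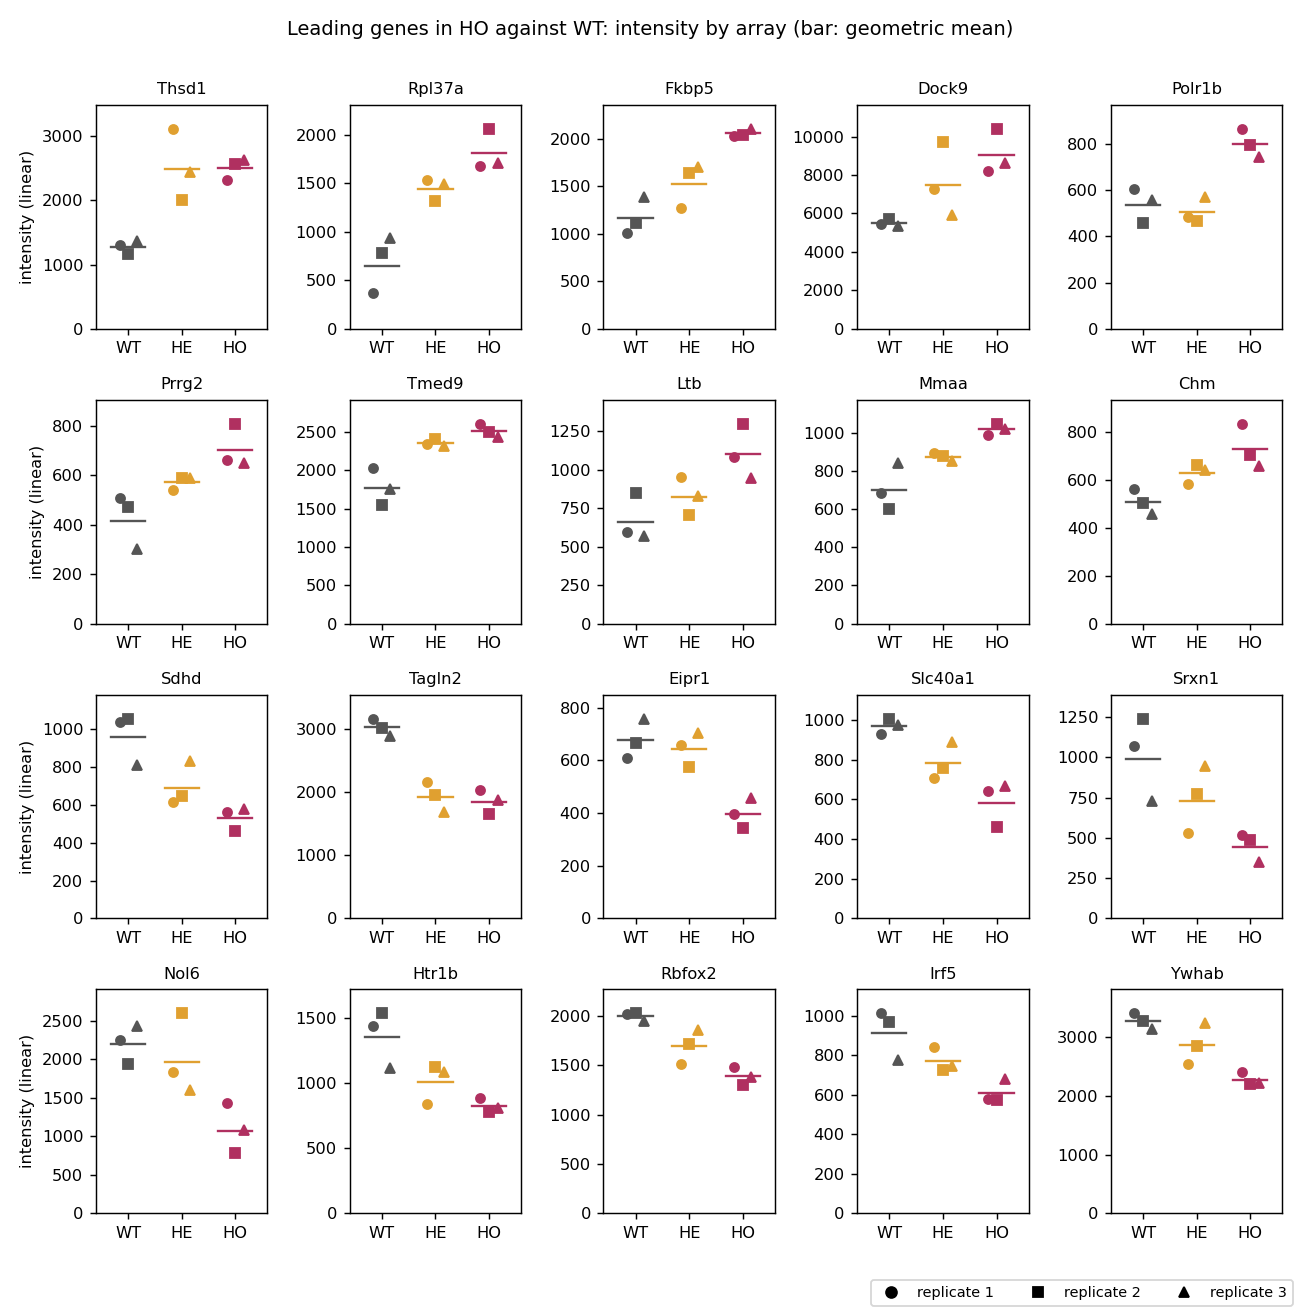
Intensity (linear scale from 0) of the 20 leading probe sets on each array, the 10 higher in HO in the upper rows and the 10 lower in HO in the lower rows; symbols are replicate numbers and bars geometric means of 3 arrays. The HO arrays lie outside the range of the WT arrays in all 20 panels, as for Thsd1, with WT at 1163 to 1372 and HO at 2326 to 2631.

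The 10 genes of lowest p that were lower in HO had differences of -0.525 to -1.148. Sdhd, a membrane anchor subunit of succinate dehydrogenase, read 1034, 1054 and 809.8 on the WT arrays and 559.6, 463 and 577 on the HO arrays, with all HO arrays below WT and a difference of -0.85 ± 0.165. Its other probe set gave 0.05 ± 0.13 with overlapping groups. Tagln2, an actin-binding protein, read 3174, 3026 and 2902 on the WT arrays and 2044, 1653 and 1873 on the HO arrays, a difference of -0.71 ± 0.14. Its other probe set differed by -0.29 ± 0.185, and by -0.07 without HO replicate 2, the lowest array there.

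Eipr1, which works with the EARP and GARP complexes in endosome and granule traffic, had 1 tested probe set. Eipr1 read 609.6, 667 and 759 on the WT arrays and 398, 345 and 456 on the HO arrays, with the groups apart and a difference of -0.77 ± 0.15. The HE arrays of Eipr1 read 657, 574 and 704, a difference of -0.07 from WT. Slc40a1, the iron exporter ferroportin, read 928, 1007 and 973 on the WT arrays and 641, 463 and 666 on the HO arrays, a difference of -0.73 ± 0.16 that became -0.57 without HO replicate 2, its lowest array. The second Slc40a1 probe set gave -0.27 ± 0.20, with overlap, and -0.09 without HO replicate 2. Srxn1, sulfiredoxin, which repairs over-oxidised peroxiredoxins, read 1068, 1240.0 and 726 on the WT arrays and 516, 486 and 352 on the HO arrays, the largest difference of the 10 at -1.15 ± 0.25, against -0.03 and 0.07 at its other probe sets.

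Nol6, a nucleolar protein of ribosomal RNA processing, read 2252, 1936 and 2433 on the WT arrays and 1425, 789 and 1083 on the HO arrays, a difference of -1.04 ± 0.23 at 1 probe set and 0.07 ± 0.18 at the other. Without HO replicate 2, the lowest array at the first probe set, the difference there was -0.82. Irf5, a transcription factor of the innate immune response, read 1013, 971 and 779.5 on the WT arrays and 578, 574 and 682 on the HO arrays, a difference of -0.59 ± 0.14 with its second probe set at -0.16. For both genes the groups stood apart at the leading probe set and overlapped at the other. Rbfox2, a splicing regulator, differed by -0.53 ± 0.12 and by -0.33 ± 0.17 at its 2 probe sets, the second at -0.20 without HO replicate 2. Htr1b, a serotonin receptor, differed by -0.72 ± 0.16, and Ywhab, the beta isoform of 14-3-3 proteins, by -0.525 ± 0.13. The other 5 probe sets of Ywhab ran from -0.18 to 0.14.

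Of the 20 leading genes, 13 had at least 1 further tested probe set, and for Thsd1 alone did a further one, with the same sign, reach an unadjusted p under 0.05. Probe sets whose name ends in _x_at contain probes that also match other transcripts. They made up 7.34% of the tested probe sets and 5 of the 20 leading ones, those of Rpl37a, Tmed9, Sdhd, Tagln2 and Ywhab. The WT mean log2 of Prrg2 (8.70) lay under the signal filter at 8.90, as did the HO means of Eipr1 (8.63) and Srxn1 (8.80). These genes passed the filter through the arrays where they were higher. HO replicate 2 was the most extreme HO array for 5 of the 10 genes higher in HO and for 9 of the 10 lower ones. All 20 kept their direction without it. That was fixed in advance, since their 3 HO arrays all lay on 1 side of the 3 WT arrays.

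**Figure D3:**
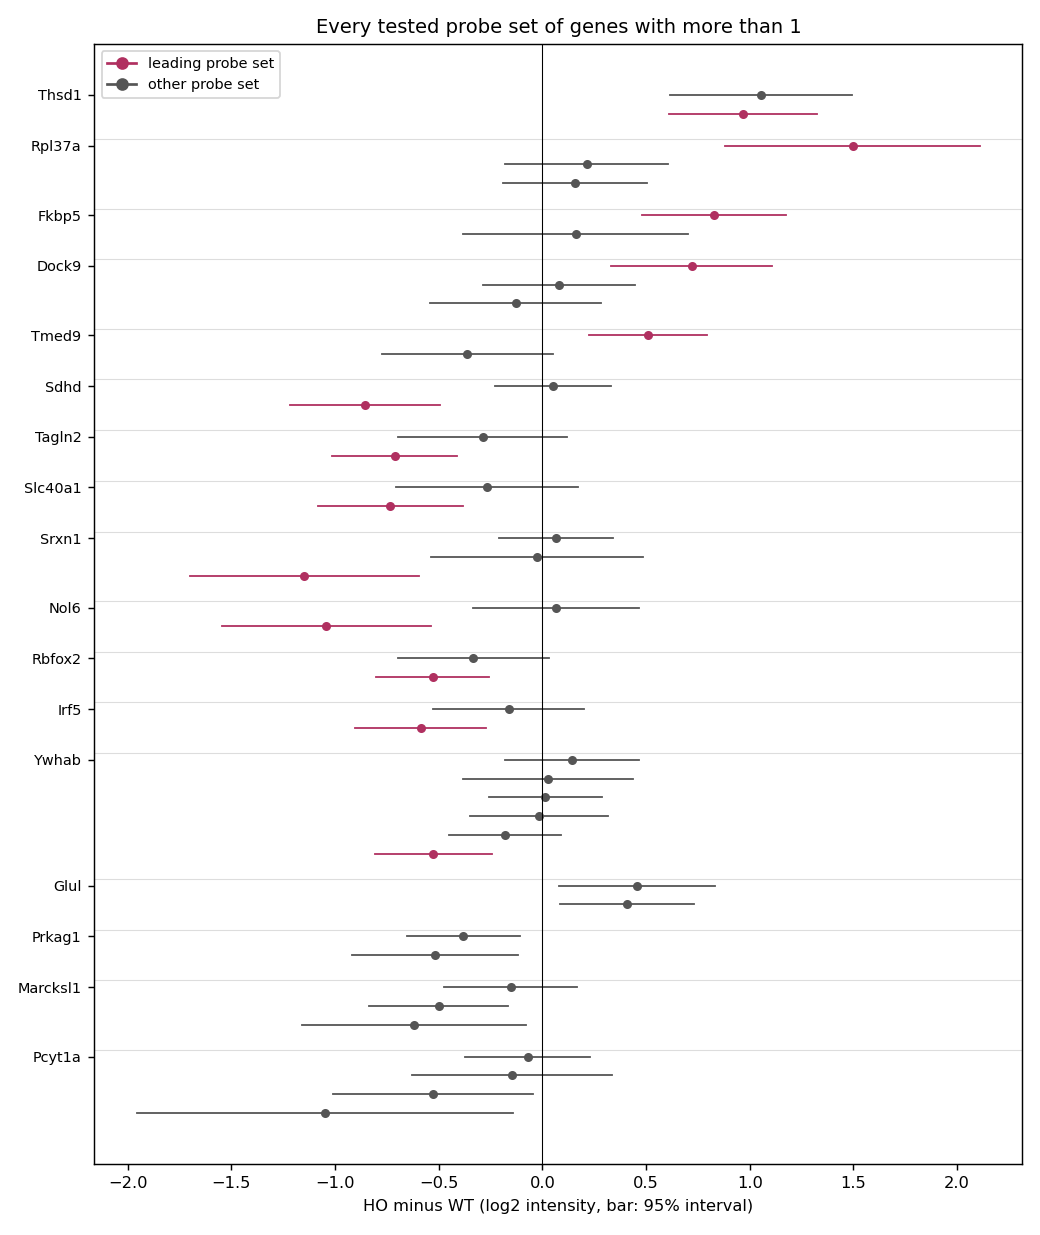
HO minus WT (log2 intensity) with its 95% interval for every tested probe set of the 13 leading genes with more than 1, and of the 4 further genes whose probe sets agreed. For Thsd1 both intervals lie above 0; for Sdhd, Srxn1 and Nol6 the other probe sets lie near 0.

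Agreement between probe sets of 1 gene was therefore examined over the whole table. Among 2882 genes with at least 2 tested probe sets, 308 (10.7%) had 1 or more at an unadjusted p under 0.05. In 2 genes higher in HO (0.0694%), Thsd1 and Glul, and 3 lower in HO (0.104%), Prkag1, Marcksl1 and Pcyt1a, at least 2 probe sets were at that level and all had 1 sign. Both Marcksl1 probe sets at that level, and 1 of those of Prkag1, end in _x_at and contain probes that also match other transcripts. Glul, glutamine synthetase, read 4093, 4017 and 4186 on the WT arrays and 5707, 5792 and 4865 on the HO arrays at 1 probe set, a difference of 0.41 ± 0.15 with the groups apart. Its other probe set gave 0.455 ± 0.17, where HO replicate 2, at 1498, lay within the WT range of 1299 to 1566.

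Prkag1, the gamma 1 subunit of the energy sensor AMPK, read 5589, 5959.5 and 5916 on the WT arrays and 4729.8, 3129 and 4545 on the HO arrays at 1 probe set and 735, 609.8 and 686 against 535, 538 and 484 at the other. The HO arrays were below all WT arrays at both, with differences of -0.52 ± 0.18 and -0.38 ± 0.12, and of -0.33 and -0.41 without HO replicate 2. In HE the same probe sets differed from WT by -0.45 and 0.04. Marcksl1, a relative of the actin-regulating kinase C substrate MARCKS, differed by -0.50 ± 0.15, -0.62 ± 0.245 and -0.15 ± 0.15 at 3 probe sets, of which the first 2 were apart from WT. Without HO replicate 2, the lowest array at the second of them, these were -0.57, -0.36 and -0.125. Pcyt1a makes CDP-choline, the rate-limiting step of phosphatidylcholine synthesis that surfactant draws on. Its 4 probe sets gave -1.05, -0.53, -0.15 and -0.07, and none had groups apart. The first of them read 710.3, 949 and 874 on the WT arrays and 523, 169 and 752 on the HO arrays. Its low value was that of HO replicate 2, and without it the 4 differences were -0.42, -0.25, 0.02 and -0.03.

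HO and WT arrays of 1 replicate number deviated together from their group means, with correlations of 0.193, 0.139 and 0.276 across probe sets, so the comparison was also fitted with the replicate number as a block. That fit gave 0 probe sets past the threshold (lowest adjusted p = 0.68 in limma) and 808 (5.95%) at an unadjusted p under 0.05. HO differed from WT in 1 direction within all 3 numbers for 3724 probe sets (27.4%), and by more than 0.5 in each for 25 (0.184%). Itgb1, the beta 1 integrin chain, read 1603, 754 and 395 on the WT arrays and 2999, 1277 and 1249 on the HO arrays at a probe set among those of lowest p in the block fit. Both groups were highest in replicate 1, the groups overlapped, and the differences within replicate numbers were 0.90, 0.76 and 1.66. The SE was 0.54 without the block and 0.22 with it (adjusted p = 0.826 in limma), and the other 3 probe sets of Itgb1 gave 0.02, -0.008 and 0.22. Gsta3, a glutathione S-transferase abundant in club cells, read 2146, 2665 and 2386 on the WT arrays and 3059, 3986 and 3152 on the HO arrays, a difference of 0.50 ± 0.16, with 0.27 ± 0.13 at its second probe set, and the groups were apart at both. Slc35b4, a Golgi transporter of nucleotide sugars, differed by -0.61 ± 0.185, -0.29 and -0.17 at its 3 probe sets. The first of these was -0.44 without HO replicate 2, the lowest array there.

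Differences of over 2-fold between the group means were found at 19 probe sets, 11 higher and 8 lower in HO. Of these, 11 had groups apart, beside 8.88% of all tested probe sets. Selection for a large mean difference itself favours groups that stand apart, so these shares are not like for like. They are named here for their size after their values were seen. Slurp1, a secreted Ly6-family protein of epithelia, read 1116, 98.9 and 154 on the WT arrays and 1046, 801 and 812 on the HO arrays, a difference of 1.775 ± 0.67. WT replicate 1 was the highest of these 6 arrays and the other WT arrays the lowest, so the groups overlapped. Leaving out WT replicate 1 made Slurp1 the single probe set past the threshold (adjusted p = 0.00626 in limma), at a difference of 2.835. The WT mean log2 of Slurp1 was 8.005, under the signal filter at 8.90, and its HO mean was 9.78. Slurp1 thus passed the filter through the groups where it was high, and this p is no support for a difference. Bola2, of iron-sulfur cluster assembly, was at 1.55 at 1 probe set and from -0.046 to 0.758 at its other 4. Lasp1, an actin-binding scaffold protein, was at -1.17 at 1 probe set and from -0.714 to 0.079 at its other 8. Cd82, a tetraspanin, had 1.23 at 1 probe set and 0.102 at another, and Tnfrsf12a, the receptor of TWEAK, had 1.03 and -0.463. Kcna2, a voltage-gated potassium channel, read 798, 643 and 633 on the WT arrays and 531, 108 and 607 on the HO arrays, so that its -1.07 rested on HO replicate 2 and was -0.28 without it.

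Gene groups were then described at 1 probe set per gene, the one of highest mean, over 8184 genes. Of all these genes 50.0% were higher in HO, the median difference was 0.000, and 347 (4.24%) were at an unadjusted p under 0.05, 140 higher (1.71%) and 207 lower (2.53%). The groups were apart for 772 (9.43%), 360 of them higher (4.40%) and 412 lower (5.03%), and the block fit put 445 (5.44%) at an unadjusted p under 0.05. The lists were chosen with earlier results of these data known, so counts of members set beside shares of all genes are descriptions. Of 39 lists, 38 had at least 5 tested genes. Their medians ran from -0.307 to 0.219, 31 of them within 0.1 of 0, and 0 members passed after adjustment. The medians of 14 lists, all within 0.1 of 0, changed sign under quantile normalization or median centring, among them the lists for alveolar type II and type I cells, muscle, adipocytes, cAMP signalling, stress of the endoplasmic reticulum, junctions and proliferation.

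Genes around CFTR itself had list medians near 0. Of 54 tested genes for CFTR's scaffolds, traffic and quality control, 34 were higher and 20 lower in HO, with a median of 0.04. An unadjusted p under 0.05 was reached by 3 higher and 0 lower members, and 5 higher and 0 lower ones had groups apart, beside 1.71% and 2.53% of all genes at that p and 4.40% and 5.03% apart. Ube2j1, a ubiquitin-conjugating enzyme of degradation from the endoplasmic reticulum, read 2049.9, 1997 and 2285 on the WT arrays and 2946, 2672 and 2558 on the HO arrays, a difference of 0.37 ± 0.135, with -0.105 at its other probe set. Usp10, a deubiquitinase that acts on endocytosed CFTR, read 1203, 1118 and 1441 on the WT arrays and 1468, 1471 and 1829 on the HO arrays, a difference of 0.34 ± 0.145 with HO above WT on all arrays. Dnaja1, an Hsp40 co-chaperone, differed by 0.49 ± 0.19 and by 0.08 at its 2 probe sets, and WT replicate 3 lay within the HO range at the first.

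Epithelial ion and water transport genes had a median of 0.04 with 20 of 30 members higher, with 0 higher and 0 lower at an unadjusted p under 0.05, beside the same shares of all genes. Scnn1g, the gamma subunit of the epithelial sodium channel, read 3619, 3913 and 3364 on the WT arrays and 4533, 4526 and 3811 on the HO arrays, a difference of 0.24 ± 0.13, and WT replicate 2 lay above HO replicate 3. Clcn3, a chloride-proton exchanger of endosomes, was at 0.58 ± 0.34, 0.19, 0.27 and -0.30 at its 4 probe sets. At the first of these WT replicate 1 was low, at 785 against 2004 and 2098 on the other WT arrays. In the cAMP signalling list, the pathway that opens CFTR, 13 of 26 genes were higher. Its member of lowest p was Pde7a, a cAMP-degrading phosphodiesterase, which read 1452, 1351 and 1620.1 on the WT arrays and 1733, 2119 and 2195 on the HO arrays, a difference of 0.45 ± 0.14 with the groups apart. The other Pde7a probe sets gave 0.275, -0.115 and -0.04.

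Markers of the epithelial cells had medians between -0.10 and 0.07. The type II cell list had a median of 0.02 with 11 of 20 members higher, and surfactant lipid and lamellar body genes a median of 0.07 with 15 of 21 members higher. Nkx2-1, the transcription factor of lung epithelial identity, read 507, 619 and 735 on the WT arrays and 365, 485 and 467 on the HO arrays. Its difference was -0.49 ± 0.175 with all HO arrays below WT. With each gene at its probe set of highest mean, Nkx2-1 was the 1 of 20 type II markers at an unadjusted p under 0.05. Of all genes, 2.53% were lower and 1.71% higher at that p. The mean log2 of Nkx2-1 over all 9 arrays was 9.00, just above the signal filter at 8.90. Etv5, a transcription factor of type II cells, differed by -0.27 ± 0.19 at its probe set of highest mean and by -0.64 ± 0.23 (unadjusted p = 0.0182 in limma) at its other one, where the groups overlapped. Without HO replicate 2, the lowest array at that other probe set, the difference there was -0.42. Alveolar type I markers had a median of -0.00 with 6 of 13 members higher, and club cell markers a median of 0.04 with 11 of 14 members higher, led by Gsta3. Ciliated cell markers had a median of -0.10 with 2 of 7 members higher. Their member of lowest p, the dynein light chain gene Tctex1d4, read 669, 659 and 511 on the WT arrays and 486, 412 and 434 on the HO arrays, a difference of -0.46 ± 0.18, and without HO replicate 2 the list median was 0.04. Cdh1, the E-cadherin of epithelial junctions, read 4590.3, 5802 and 4283 on the WT arrays and 3089, 3637 and 4074 on the HO arrays, a difference of -0.44 ± 0.17 with the groups apart, in a junction list whose median was -0.001 over 28 genes.

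Among the other cell types of lung, neutrophil markers had a median of -0.31 with 0 of 10 members higher. Taken over these markers and set against the WT mean, array medians were -0.615, 0.505 and -0.16 on the WT arrays and 0.22, -0.47 and -0.54 on the HO arrays, so WT spanned the HO arrays entirely. The summed intensity of the markers ran from 15794 to 57012 in WT and from 14860 to 33596 in HO, and without WT replicate 2 the median was -0.03. Csf3r, the receptor for granulocyte colony-stimulating factor, read 973, 3920.0 and 1719 on the WT arrays and 2158, 775 and 711 on the HO arrays, a difference of -0.82 ± 0.60, with HO replicate 1 among the WT arrays. Endothelial markers had a median of 0.105 with 17 of 25 members higher, which was -0.01 without HO replicate 2. The endothelial adhesion molecule Pecam1 differed by 0.31 ± 0.18 at its probe set of highest mean. Cardiac and skeletal muscle genes had a median of -0.045 with 9 of 23 members higher, with array medians of 0.47, -0.37 and -0.23 in HO and of -0.03, 0.03 and -0.03 in WT. Adipocyte markers had a median of -0.01, and 0.225 without HO replicate 2, whose reading for the adipocyte carbonic anhydrase Car3 was 801 against 5113 and 2877 on the other HO arrays. Mesothelial markers had a median of 0.22 with 5 of 7 members higher, with WT arrays at 0.60, 0.02 and -0.42. Their median was -0.05 without WT replicate 3 and 0.48 without WT replicate 1. These marker levels differed between single arrays of 1 group, and their part in the gene differences above was not tested.

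**Figure D4:**
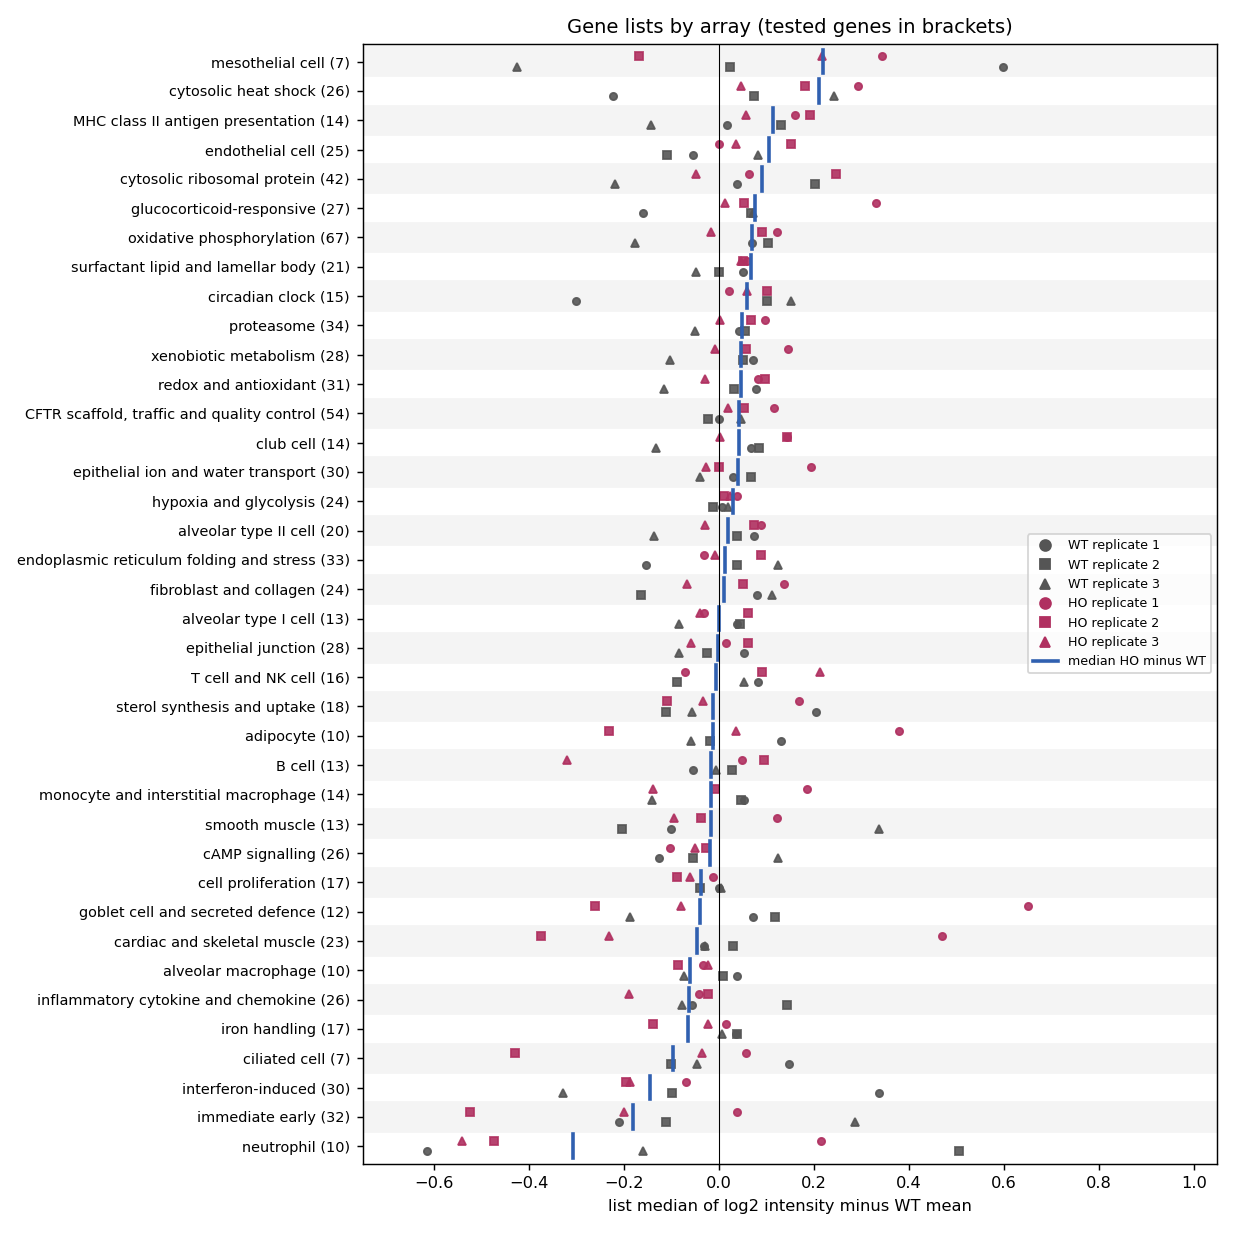
Median over the tested members of each list (number in brackets) of log2 intensity minus the WT mean, for the 3 WT (grey) and 3 HO (red) arrays, with the median HO minus WT difference as a blue bar. The WT and HO arrays overlap in most rows, and in the neutrophil row the WT arrays run from -0.615 to 0.505.

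Cytosolic heat shock genes, the chaperones that fold newly made and damaged proteins, had a median of 0.21 with 22 of 26 members higher, beside 50.0% higher and a median of 0.000 over all genes. At an unadjusted p under 0.05 there were 1 higher and 0 lower, beside 1.71% and 2.53% of all genes, and 0 higher and 0 lower had groups apart, beside 4.40% and 5.03%. The list median by array was -0.22, 0.075 and 0.24 in WT and 0.29, 0.18 and 0.05 in HO, so the highest WT array exceeded 2 of the 3 HO arrays. Leaving out WT replicate 1 lowered the median to 0.06, and leaving out WT replicate 3 gave 0.33. Hsph1, an Hsp110 chaperone, read 2846, 4337 and 8019 on the WT arrays and 10117, 6791 and 5785 on the HO arrays, a difference of 0.67 ± 0.33 and 0.58 ± 0.325 at its 2 probe sets. Within replicate numbers the first probe set differed by 1.83, 0.65 and -0.47, and thus in both directions. Hspb1, a small heat shock protein, read 22100.3, 24511 and 30240.0 on the WT arrays and 42196, 31285 and 25462 on the HO arrays, likewise with WT replicate 3 above HO replicate 3.

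A heat shock element written as 3 alternating units (GAA, TTC and GAA with 2 bases between units, or the reverse complement) was found in the promoters of 4 of the 22 tested heat shock genes with a RefSeq window, against 198 of all 32851 windows (0.603%). The first count is by gene, which can have several windows, and the second by window, so the shares are not like for like. The 4 genes are shown as the members whose window holds the 3 units. Capitals mark every base that lies in a match, with 20 bases on each side. Hsph1 had 1 match, Hspd1 and Hspe1 had 2 overlapping ones and Chordc1 had 3. Hspd1 and Hspe1 are neighbours read in opposite directions, and their matches are the same bases of a shared promoter.
Hsph1 (chr5:149636268-149636320, minus strand): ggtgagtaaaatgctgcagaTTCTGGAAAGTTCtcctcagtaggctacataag
Hspd1 (chr1:55088039-55088096, minus strand): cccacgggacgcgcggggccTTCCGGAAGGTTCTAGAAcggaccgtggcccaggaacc
Hspe1 (chr1:55088039-55088096, plus strand): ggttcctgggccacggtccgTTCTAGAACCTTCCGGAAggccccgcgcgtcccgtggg
Chordc1 (chr9:18292243-18292305, plus strand): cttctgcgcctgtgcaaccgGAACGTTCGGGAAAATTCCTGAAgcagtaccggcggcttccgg
The differences of these genes in HO were 0.67 ± 0.33, 0.21 ± 0.18, -0.07 ± 0.13 and 0.14 ± 0.22 in that order, so the 4 genes with the element were spread over the list.

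Glucocorticoid-responsive genes had a median of 0.08 with 16 of 27 members higher. Of these, 5 were higher at an unadjusted p under 0.05, beside 1.71% of all genes, and 0 lower. The groups were apart for 6 higher (beside 4.40%) and 0 lower members. The 5 at that p were Fkbp5, Sult1a1, Klf15, Glul and Zbtb16. The list was chosen with earlier results of these data known, so these counts describe it and do not test it. Sult1a1, a sulfotransferase of phenols and drugs, read 1624, 1469.8 and 1165 on the WT arrays and 1924, 2249.8 and 2595 on the HO arrays, a difference of 0.67 ± 0.18 with 0.65 in HE. Klf15, a transcription factor of amino acid and lipid metabolism, read 1289.8, 1532 and 1596 on the WT arrays and 2524, 1887 and 2582 on the HO arrays, a difference of 0.65 ± 0.21 with 0.41 in HE. Both genes had all HO arrays above WT. Zbtb16, a transcriptional repressor, was at 1.34 ± 0.51 at an _x_at probe set and at -0.165 at its other one. At the other end of the list stood the clock gene Per1 at -0.34 ± 0.22, or -0.05 without HO replicate 2, while the kinase Sgk1 was at -0.095 ± 0.17 and Tsc22d3, the glucocorticoid-induced leucine zipper, at 0.32 ± 0.23. The list median by array was -0.16, 0.07 and 0.07 in WT and 0.33, 0.05 and 0.01 in HO. It was 0.23 without HO replicate 2 and -0.04 without HO replicate 1. In HE, against the same WT arrays, the list median was 0.205. Of the 21 tested members with a RefSeq promoter window, 1 held the full glucocorticoid element, in capitals here as the example of the motif searched.
Sgk1 (chr10:21993681-21993735, plus strand): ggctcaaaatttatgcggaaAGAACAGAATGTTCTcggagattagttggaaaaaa
That gene, Sgk1, lay within 1 SE of 0, and whether the element acts in these samples was not tested.

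Immediate early genes, transcription factors and phosphatases induced within minutes of a stimulus, had a median of -0.18, the lowest after that of the neutrophil list, with 27 of 32 members lower. At an unadjusted p under 0.05 there were 2 lower members, beside 2.53% of all genes, and 0 higher, and 4 lower members had groups apart, beside 5.03%. Dusp2, a phosphatase of MAP kinases, read 1271, 1185 and 1295 on the WT arrays and 898, 834 and 869 on the HO arrays, a difference of -0.53 ± 0.14. The HO arrays of Dusp2 all lay below WT and the differences within replicate numbers were -0.50, -0.51 and -0.58. Klf4, a transcription factor of epithelial and endothelial cells, read 10429.6, 12207 and 10601 on the WT arrays and 9991, 6791 and 9067 on the HO arrays, a difference of -0.38 ± 0.16, which was -0.22 without HO replicate 2. Fosb, a subunit of AP-1, read 509, 447 and 1742 on the WT arrays and 394, 356 and 263 on the HO arrays, a difference of -1.14 ± 0.53, with WT replicate 3 far above the other arrays. Over the list, the array medians were -0.21, -0.11 and 0.29 in WT and 0.04, -0.52 and -0.20 in HO, and the median difference was -0.05 without WT replicate 3 and -0.085 without HO replicate 2. A full cAMP response element (TGACGTCA, its own reverse complement) lay in 588 of all windows (1.79%) and in those of 3 of the 27 members with one, Dusp1, Btg2 and Maff. The first count is by window and the second by gene, which can have several windows. Partial or more distant elements were not searched. The 3 members whose window holds the full element are shown with 20 bases on each side.
Dusp1 (chr17:26508588-26508635, minus strand): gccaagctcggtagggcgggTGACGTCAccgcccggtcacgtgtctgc
Btg2 (chr1:134079294-134079341, minus strand): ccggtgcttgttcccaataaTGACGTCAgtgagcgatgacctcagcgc
Maff (chr15:79347471-79347518, plus strand): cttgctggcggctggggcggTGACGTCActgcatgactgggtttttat
Their differences were -0.08 ± 0.24, -0.08 ± 0.31 and 0.16 ± 0.39, each within 1 SE of 0.

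**Figure D5:**
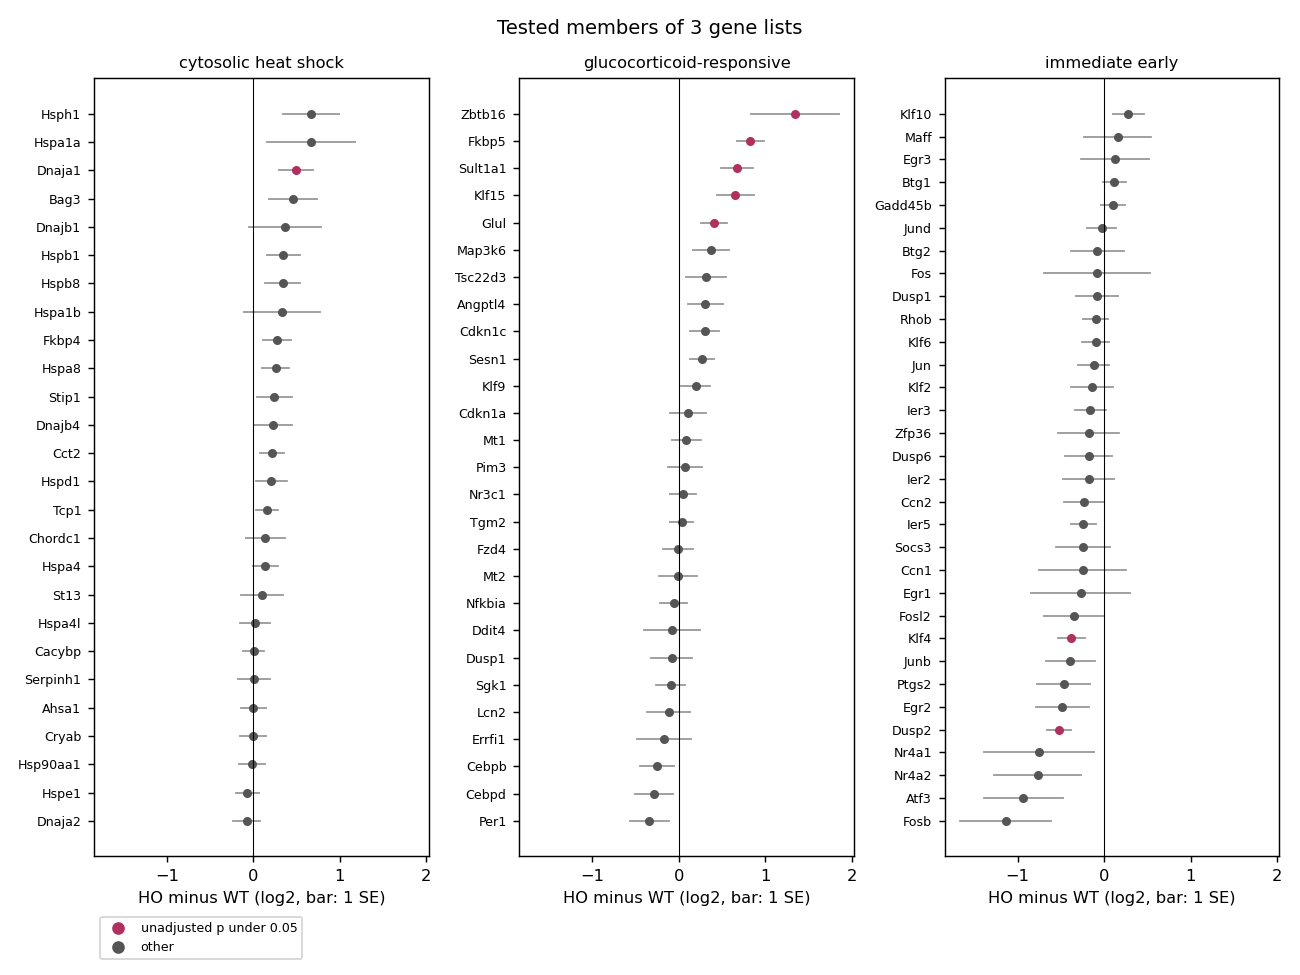
HO minus WT (log2 intensity, horizontal axis) with 1 SE for each tested member of the cytosolic heat shock, glucocorticoid-responsive and immediate early lists. Red points are the 1, 5 and 2 members at an unadjusted p under 0.05; most heat shock members lie right of 0 and most immediate early members left of it.

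Interferon-induced genes had a median of -0.14 with 9 of 30 members higher, but the WT array medians were 0.34, -0.10 and -0.33, and without WT replicate 1 the median was 0.055. Ifit1, an antiviral RNA-binding protein, read 4101, 1581 and 1306 on the WT arrays and 1266, 1574 and 1105 on the HO arrays, with WT replicate 1 above all others. Oasl1, an interferon-induced regulator of translation, read 685, 697 and 587 on the WT arrays and 554, 472 and 579.7 on the HO arrays, a difference of -0.30 ± 0.13 with the groups apart. Cytokine and chemokine genes had a median of -0.06 with 9 of 26 members higher. Ccl5, a chemokine of T and NK cells, read 2832, 2268 and 2278 on the WT arrays and 2302, 4213 and 4211 on the HO arrays, with HO replicates 2 and 3 above all WT arrays and HO replicate 1 within their range. Genes of antigen presentation on MHC class II had a median of 0.115 with 10 of 14 members higher, or -0.003 without WT replicate 3.

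Redox genes had a median of 0.05 with 20 of 31 members higher, with 1 higher and 2 lower at an unadjusted p under 0.05, beside 1.71% and 2.53% of all genes. The lower ones were Txn2 and Cat. Txn2, the mitochondrial thioredoxin, read 2909, 2821 and 2319 on the WT arrays and 1967, 2057 and 1583 on the HO arrays, a difference of -0.52 ± 0.15, with HO below WT on all arrays, but its other probe sets gave 0.14 and 0.38. Cat, catalase of peroxisomes, read 11681, 16334 and 10630.4 on the WT arrays and 7733, 5189 and 10218 on the HO arrays, a difference of -0.77 ± 0.33 that was -0.51 without HO replicate 2, and -0.17 ± 0.14 at its other probe set. The higher one was Gsta3. Among iron genes, with a median of -0.06 with 8 of 17 members higher, the transferrin receptor 2 gene Tfr2 was at -0.36 ± 0.14 and the iron-sulfur scaffold Iscu at 0.22 ± 0.12, both with groups apart. Slc40a1 is represented in this list by its other probe set.

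The lists of housekeeping machineries had medians between 0.01 and 0.09. In terms of members higher and list median, these were 49 of 67 and 0.07 for oxidative phosphorylation, 33 of 42 and 0.09 for ribosomal proteins, 24 of 34 and 0.05 for the proteasome and 17 of 33 and 0.01 for folding and stress of the endoplasmic reticulum. Without WT replicate 3 the first 2 medians were -0.009 and -0.006. Psmc3, an ATPase of the proteasome, read 3767, 3549.9 and 3469 on the WT arrays and 4132, 5172 and 4102 on the HO arrays, a difference of 0.31 ± 0.13 with the groups apart, and of 0.20 without HO replicate 2. Cell proliferation genes had a median of -0.04 with 6 of 17 members higher, and Cdca3, a trigger of entry into mitosis, read 672, 893 and 619 on the WT arrays and 513, 479 and 463 on the HO arrays, a difference of -0.57 ± 0.16 with HO below WT on all arrays. That probe set is an _x_at one, and the gene had no other that was tested.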

How the data were processed

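Lung RNA of FVB/N mice was hybridised to Affymetrix mouse 430A arrays, 3 titled WT, 3 HE and 3 HO. Each array's deposited column gives a linear intensity for 22690 probe sets; the software and any detection calls behind it are not given in the sources used here. The authors brought all arrays to 1 trimmed mean, which the values put at 1500.4 with 2% removed at each end. Arrays have no count depth, so their number limits the precision.

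Intensities at or under the 5th percentile (25.5) were raised to it and converted to log2. After removal of 64 array controls, the test took the 13576 probe sets whose mean log2 reached the 40th percentile (8.90). All 9 arrays were fitted with limma 3.58.1 (lmFit, eBayes) in R 4.3.3, with HO minus WT as the contrast and Benjamini-Hochberg adjustment over all tested probe sets at a threshold of 0.05. The functions were tested on simulated data. Where arrays do not overlap, all 3 HO values lie on 1 side of all 3 WT values.

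By the platform annotation, 1 symbol was held by 20380 probe sets, several by 691 and none by 1555, and the last 2 kinds were not named. Of the first, 20351 matched the RefSeq gene table (GRCm38.p6). Named genes were the 10 of lowest p in each direction, since none passed. Added to these were genes with all tested probe sets of 1 sign and at least 2 at an unadjusted p under 0.05, up to 6 per direction of lowest p in the block fit, members of lowest p of the lists described, Sftpc and Cftr. The members and lists were chosen with earlier results of these data known. Replicate numbers come from the titles, and the main fit had no term for them. They were fitted as a block in an alternative, since all 3 correlations of deviations exceeded 0.1. HO and HE share the WT arrays. Alternatives were other scalings, filters, floors, moderation and samples in the fit, the replicate block, 1 probe set per gene, HO replicate 2 as HE, and each array left out in turn.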

Additional observations from a re-analysis of the deposited data

How the results depend on the processing

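With 3 arrays per group and no gene past the threshold, these results bound differences more than they name genes. Every alternative except 1 left 0 probe sets past an adjusted p of 0.05 in limma. Leaving out each array in turn gave 0 to 1, the 1 being Slurp1 without WT replicate 1, at 2.835. The WT mean of Slurp1 lay under the signal filter, which it passed through the groups where it was high. With the replicate number as a block the count at an unadjusted p under 0.05 was 808 in place of 610, 798 with only the 6 arrays compared, and the block changed no call. The lowest adjusted p in limma, 0.602 in the comparison itself, was 0.075 with the block and only the 6 arrays. It was 0.129 with no signal filter and 0.845 with quantile normalization. That count was 1225 with no signal filter, 378 with a filter at the 60th percentile, 369 with HO replicate 2 counted as HE and 347 with 1 probe set per gene, with another number of probe sets tested or fewer HO arrays. Leaving out each array gave 397 to 1001. Probe sets whose arrays do not overlap numbered 2116 with no filter, 743 at the 60th percentile, 2026 with HO replicate 2 as HE, 772 with 1 probe set per gene and 2026 to 3247 with an array left out, where fewer arrays overlap less often by construction. All 20 leading probe sets kept their direction in every alternative that tested them. With an array left out or HO replicate 2 as HE, that was fixed in advance. The HO and WT arrays of all 20 were apart. Some values changed sign. Sftpc, at 0.03 in the comparison itself, was at -0.025 with quantile normalization, -0.009 with HO replicate 2 as HE and -0.114 to 0.127 over the arrays left out. Cftr, at 0.03, was at -0.028 with HO replicate 2 as HE and -0.054 to 0.151 over the arrays left out. One Pcyt1a probe set, at -0.15, was at 0.017 with HO replicate 2 as HE and -0.406 to 0.030 over the arrays left out, and Car3, at -0.519 in the comparison itself, was at 0.234 with HO replicate 2 as HE and -1.103 to 0.234 over the arrays left out. The cause of these changes of sign was not tested. Other floors moved the count at an unadjusted p under 0.05 by 1 probe set at most. The floor at the 20th percentile moved the Slurp1 difference from 1.775 to 1.494.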
